A study of Mus musculus with 2 samples.

Results

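The genes described here encode the protein subunits of the mitochondrial respiratory chain and of ATP synthase. They were chosen by symbol from the annotation of an Illumina mouse bead array, as every probe whose gene symbol begins with Nduf, Uqcr, Cox4 to Cox8 or Atp5, or is Sdha, Sdhb, Sdhc or Sdhd. The rule found 135 probes of 45281 on the array, and 87 genes of the 19057 with a symbol of their own. By symbol, 36 genes belong to complex I, 4 to complex II, 7 to complex III, 16 to complex IV and 16 to complex V, and 8 are Ndufaf genes, which encode assembly factors of complex I and not subunits.

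RNA came from whole tibia of female C57BL/6 mice aged 22 weeks, with no treatment. One array held a pool of 3 Terc+/+ mice and the other a pool of 3 Terc-/- mice, which lack the RNA component of telomerase and which the series describes as generation G3. Pooling leaves the spread between animals unmeasured, and with 1 array per genotype no difference below has a replicate check, a standard error or a p-value. Raw intensities had medians of 127 (Terc+/+) and 138 (Terc-/-), and 16640 and 15363 probes were detected, that is, had a detection p-value under 0.01. Both pools carried the bone markers Col1a1, Col1a2, Bglap and Ibsp, and both also carried markers of marrow and of skeletal muscle. In such a tissue mixture, fewer cells of a type and less RNA per cell cannot be told apart.

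The respiratory chain passes electrons from NADH and succinate to oxygen and uses the energy released to pump protons across the inner mitochondrial membrane. Complex I oxidises NADH, complex II oxidises succinate, complex III passes electrons from ubiquinol to cytochrome c, complex IV (cytochrome c oxidase) reduces oxygen, and complex V (ATP synthase) uses the proton gradient to make ATP. Several small subunits of complex IV exist as a ubiquitous form and as a form found mainly in heart, skeletal muscle and brown fat, encoded by separate genes.

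Cox7a1, Cox8b and Cox6a2, the 3 muscle-type subunits of cytochrome c oxidase on the array, were lower in the Terc-/- pool by more than 2-fold, while most other members differed by less than 1.5-fold. Of the 87 genes, 81 had a probe above background on at least 1 array, 79 of them on both arrays and 2 on the Terc-/- array only. Among the 81, 3 (3.7%) were at least 2-fold lower in Terc-/-, against 8.81% of all 9953 detected genes, and 1 (1.23%) was at least 2-fold higher, against 6.86% of all detected genes. At 1.5-fold, 7 members (8.64%) were lower and 4 (4.94%) higher, against 17.0% of all detected genes in each direction. The 2-fold limit is a size threshold without a test. The members were brighter than most genes, with a median raw intensity in Terc+/+ of 3503 against 474 over all detected genes. These shares were not matched for brightness. Without the 3 muscle-type genes no member was 2-fold lower.

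The median shift over the members was small, and its size depended on how the arrays were scaled. Differences are given on the log2 scale as Terc-/- minus Terc+/+, after background correction and quantile normalization. Over the 81 detected members the median was -0.18, or 1.13-fold lower, with the middle part of the members, from the lower to the upper quartile, between -0.36 and -0.02. Over all detected genes the median was 0.01. The difference was below 0 for 63 members (77.8%), against 49.2% of all detected genes. The members are brighter than most genes, and the part of brightness in this excess was not tested. When the arrays were scaled to a common median in place of quantile normalization, the members' median was 0.00 beside 0.08 over all genes, and 49.4% of the members lay below 0 beside 44.6% of all genes. Across 11 settings, the members' median lay below that of all detected genes in each. Of the 81 members, 40 were below 0 in each setting, 17 were above 0 in each and 24 changed sign.

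**Figure D1:**
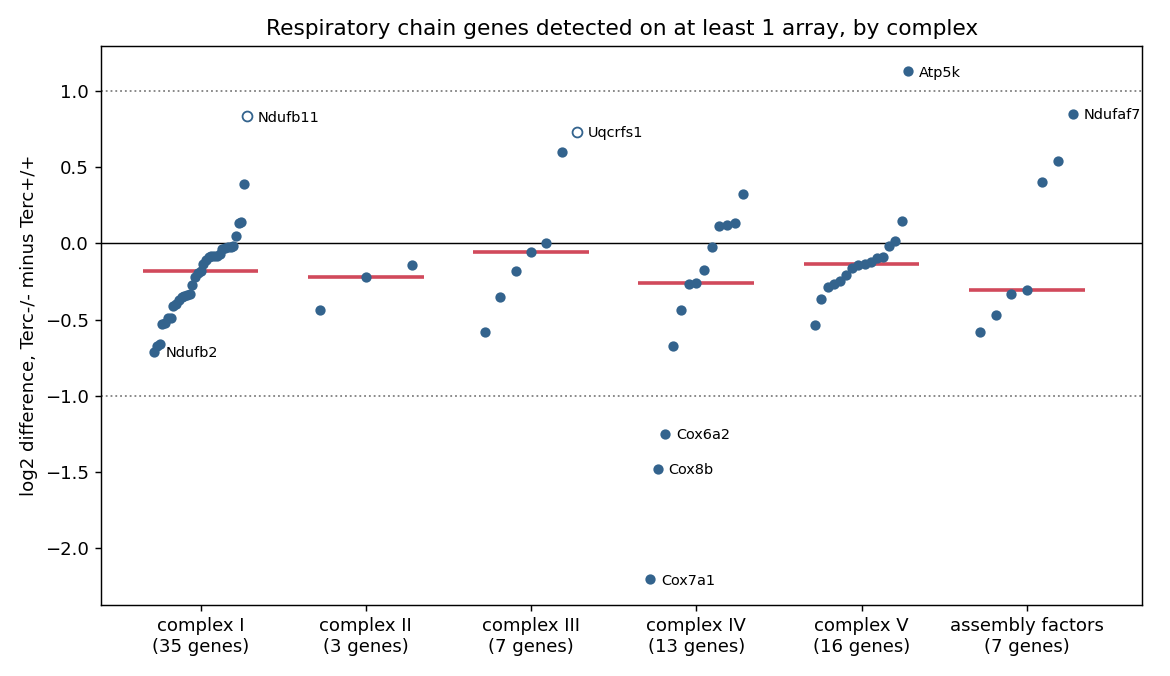
Each point is 1 respiratory chain gene, with the log2 difference of Terc-/- minus Terc+/+ on the vertical axis and the complex on the horizontal axis; red bars are medians, open circles are genes above background on the Terc-/- array only, and dotted lines mark 2-fold. The 3 genes below the lower dotted line are Cox6a2, Cox8b and Cox7a1 of complex IV, and Atp5k is the 1 gene above the upper line.

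Complex IV held the widest range. Cox7a1, the heart and muscle form of subunit VIIa, had a raw intensity of 2535 on the Terc+/+ array and 669 on the Terc-/- array, a log2 difference of -2.20 or 4.60-fold lower. Its ubiquitous counterpart Cox7a2 had raw intensities of 611 and 668 and a difference of 0.11. The muscle form was thus lower in the Terc-/- pool and the ubiquitous form was not.

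Cox6a2, the heart and muscle form of subunit VIa, had raw intensities of 8313 in Terc+/+ and 4007 in Terc-/-, 2.38-fold lower. Cox6a1, the ubiquitous form found in liver and other tissues, had 8480 and 6984 on its brighter probe, a difference of -0.44, and its other probe differed by -0.18. Both forms were lower after normalization, the muscle form by more. With scaling to a common median Cox6a2 was at -1.02 and Cox6a1 at -0.23.

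Cox8b, the heart and muscle form of subunit VIII, had raw intensities of 3139 in Terc+/+ and 1303 in Terc-/-, 2.79-fold lower. The ubiquitous form Cox8a was not analysed, since no probe carried that symbol alone in the annotation used, so Cox8b has no ubiquitous partner here. Cox8c, a form of testis, was not above background on either array. Cox7a1, Cox6a2 and Cox8b had 1 probe each, so no further probe bears on their differences. Under the 11 settings Cox7a1 ranged from -2.29 to -2.01, Cox8b from -1.53 to -1.30 and Cox6a2 from -1.30 to -1.02. The settings that change the detection filter or the choice of probes could not move these single-probe genes. Their ranges therefore come from the background and normalization settings only.

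**Figure D2:**
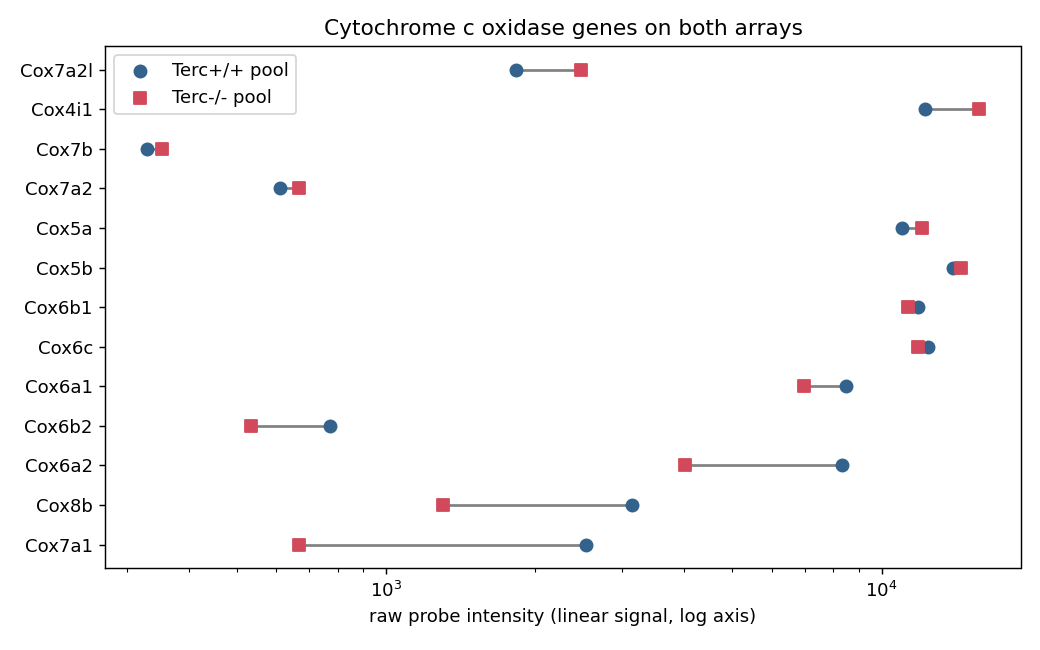
Raw probe intensity (horizontal log axis) of the 13 detected cytochrome c oxidase genes on the Terc+/+ array (circles) and the Terc-/- array (squares), ordered by normalized difference. The widest gaps are those of Cox7a1, Cox8b and Cox6a2, and the raw values of Cox5a, Cox5b, Cox7a2, Cox7b, Cox4i1 and Cox7a2l were higher on the Terc-/- array. The brightest probe of each gene is drawn, and a further Cox5b probe, not drawn, was lower on that array.

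The other isoform pairs differed less. Cox6b2, the testis form of subunit VIb, had raw intensities of 773 and 534 and a difference of -0.68, while the ubiquitous Cox6b1 was at -0.26, with a further probe at -0.41. Prm1, a sperm protamine, was above background in Terc+/+ only, at a raw intensity of 152 against 123, and the testis markers Tnp1 and Tnp2 were not detected on either array. Cox4i1, the ubiquitous form of the regulatory subunit IV, had raw intensities of 12226 and 15721 and differed by 0.13, and the lung form Cox4i2 was not above background on either array (detection p of 0.026 and 0.031). Cox7b was at 0.12, and Cox7b2, a testis form, was not detected. In ATP synthase, Atp5g2 and Atp5g3, which encode the same ring-forming subunit c, were at -0.02 and -0.16.

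The remaining subunits of complex IV are shared by most tissues. Cox5a and Cox5b, which bind next to the catalytic core, were at -0.02 and -0.18, and Cox6c was at -0.27. A further Cox5b probe was at -0.34, with raw intensities of 2096 in Terc+/+ and 1823 in Terc-/-. Cox7a2l, a relative of Cox7a2 described as a factor for joining complexes III and IV into supercomplexes, was highest in this complex. It had raw intensities of 1828 and 2474 and a difference of 0.32, and its function in these mice was not measured. The median over the 13 detected genes of complex IV was -0.26, and -0.10 over the 10 without the 3 muscle-type genes. Ndufa4, named for complex I but assigned to complex IV by later structural work, was at -0.35 and is counted with complex I here.

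The sequences before the start sites of Cox7a1, Cox8b, Cox7a2 and Cox6a1 are shown to set muscle-type genes beside ubiquitous ones. Each is the stretch of 250 bases that ends at the base before the start site given in a promoter table from RefSeq on assembly GRCm38.p6, printed 5′ to 3′ on the gene's strand. Capitals mark matches, on either strand, to an E-box (CANNTG, bound by myogenic and other basic helix-loop-helix factors), to a core of the nuclear respiratory factor NRF1 motif (GCGCANGCG), to an ETS core (CCGGAAG) or to the core of the oestrogen-related receptor motif (AAGGTCA). Cox7a1 lies on the plus strand and the window is chr7:30183921-30184170. Cox8b lies on the minus strand and its window is chr7:140900447-140900696. Cox7a2 (minus strand) has its window at chr9:79759854-79760103, and Cox6a1 (minus strand) at chr5:115348959-115349208. The Cox7a2 window lies inside the annotated span of that gene, which reaches further upstream, and the other 3 windows adjoin the end of their gene's span.
Cox7a1: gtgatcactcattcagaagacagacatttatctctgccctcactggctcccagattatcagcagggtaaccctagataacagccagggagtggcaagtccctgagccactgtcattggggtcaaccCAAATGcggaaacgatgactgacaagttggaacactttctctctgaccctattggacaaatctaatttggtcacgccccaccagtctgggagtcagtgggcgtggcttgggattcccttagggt
Cox8b: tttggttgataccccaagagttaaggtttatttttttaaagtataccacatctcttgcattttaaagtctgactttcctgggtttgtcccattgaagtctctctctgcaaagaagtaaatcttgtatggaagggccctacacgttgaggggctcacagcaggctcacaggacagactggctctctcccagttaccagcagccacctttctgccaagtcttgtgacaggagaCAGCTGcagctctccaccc
Cox7a2: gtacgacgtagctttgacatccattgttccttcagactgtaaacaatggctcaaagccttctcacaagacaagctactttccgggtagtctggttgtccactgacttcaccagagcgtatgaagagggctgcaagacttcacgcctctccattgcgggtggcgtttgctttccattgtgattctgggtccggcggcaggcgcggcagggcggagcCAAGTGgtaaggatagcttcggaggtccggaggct
Cox6a1: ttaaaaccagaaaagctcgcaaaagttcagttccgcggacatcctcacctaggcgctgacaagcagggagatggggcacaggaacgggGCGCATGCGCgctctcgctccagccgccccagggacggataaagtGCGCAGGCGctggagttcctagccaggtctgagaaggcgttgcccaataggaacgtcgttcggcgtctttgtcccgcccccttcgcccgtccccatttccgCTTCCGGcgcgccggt

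In these windows Cox6a1 matched the NRF1 core at 2 places, one of them on both strands with overlapping letters, and the ETS core at 1 place, and Cox7a1, Cox8b and Cox7a2 had 1 E-box match each. Over the 70 detected members with a window, 18.7% of the 75 windows held the NRF1 core, against 5.16% of all 32851 windows, and the same share held the ETS core, against 6.91%. An E-box match was found in 61.3% of the members' windows and in 66.2% of all windows. The oestrogen-related receptor core was found in 5.33% against 4.08%, the motif AAGATGGC of the factor YY1 in 1.33% against 1.56%, and the MEF2 motif in none of the members' windows against 2.92% of all. These are letter matches and not measured binding sites, and some genes have more than 1 window.

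Markers of skeletal muscle were lower in the same comparison. All 15 markers of skeletal muscle with a probe were detected and lower, 6 of them at least 2-fold, with a median of -0.94, and their summed normalized signal was 182504 in Terc+/+ and 88927 in Terc-/-, or 2.05-fold lower. Mb, the oxygen store myoglobin, was 7.87-fold lower, Actn2 3.50-fold, Myh1 3.38-fold and Eno3, the muscle enolase, 2.61-fold. The smallest differences were those of Actn3, 1.51-fold lower, and of the calcium pump Atp2a1, 1.59-fold lower. Of 6 markers of slow muscle and heart, 4 were detected, with Myl3 at -3.19, Myl2 at -1.09, Tnnc1 at -0.17 and Tnnt1 at 1.05, and Myh7 and Tnni1 were not above background. Their summed signal was 2317 and 1630. The part of muscle in the lower Cox7a1, Cox8b and Cox6a2 was not tested.

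Brown fat also expresses these isoforms, and its defining markers Ucp1 and Cidea were not above background on either array. Of the 8 fat markers with a probe, 3 were detected, Adipoq at -1.66, Car3 (also a muscle gene) at -1.81 and Lep at -0.58, and their summed signal was 8261 in Terc+/+ and 2560 in Terc-/-. Fabp4, Plin1 and Retn were not above background, although Adipoq had a raw intensity of 5005 in Terc+/+. An undetected probe therefore does not show that its transcript was absent, and this holds for Ucp1 and Cidea too. Markers of other cell types that moved in the same comparison were those of red-cell precursors (8 of 8 detected at least 2-fold lower, median -3.66), osteoblasts (7 of 7, median -2.30), B lymphocytes (3 of 4, median -1.89) and neutrophils (3 of 11 at least 2-fold higher, median 0.59). The B lymphocyte median includes Ms4a1, which was above background in Terc+/+ only, at a raw intensity of 164 against 140. The part of these cell types in the subunits' differences was not tested.

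**Figure D3:**
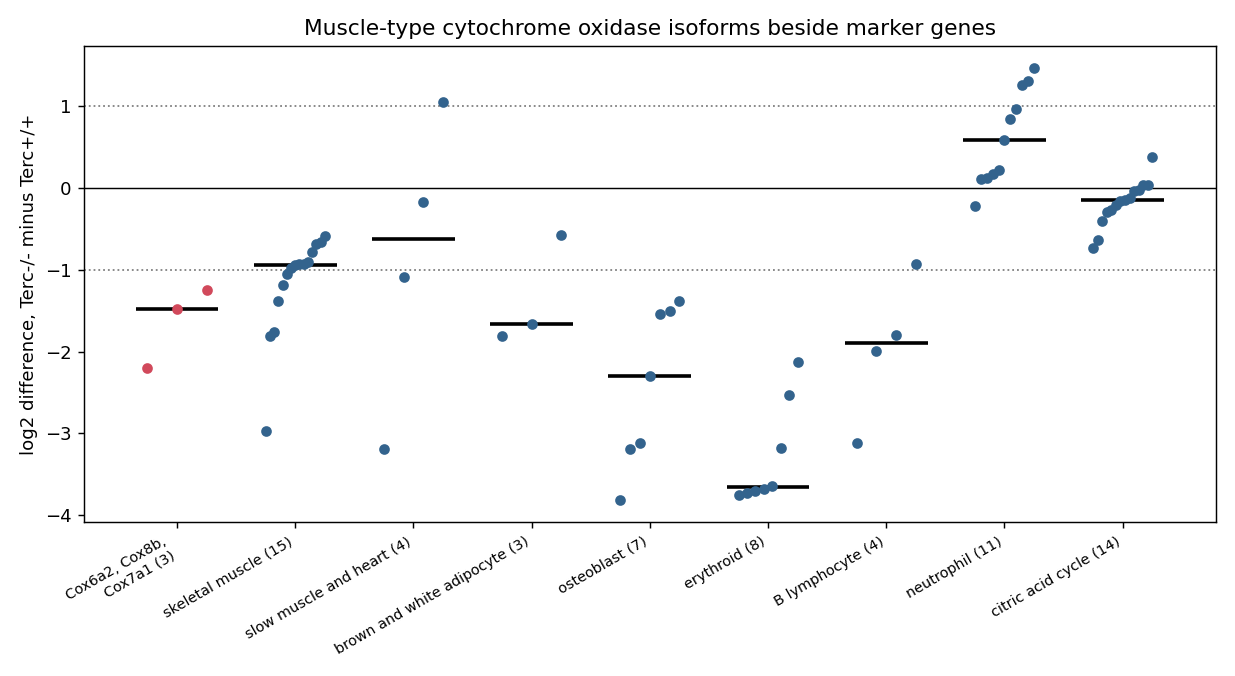
Log2 difference of Terc-/- minus Terc+/+ (vertical axis) for the muscle-type genes Cox6a2, Cox8b and Cox7a1 (red) beside detected marker genes of cell types and citric acid cycle genes (blue), with the number of genes in brackets and the median as a black bar. The skeletal muscle markers span -2.98 to -0.59 and the slow muscle and heart markers -3.19 to 1.05, ranges that each hold the 3 isoforms. The B lymphocyte markers span -3.11 to -0.93, but the point at -0.93 is Ms4a1, above background in Terc+/+ only. Those detected on both arrays span -3.11 to -1.80, which holds Cox7a1 and not Cox8b or Cox6a2. The citric acid cycle genes gather near 0.

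Complex I contributed 35 detected genes, of which 30 lay below 0, with a median of -0.18 and a range from -0.71 to 0.83. None passed 2-fold. The 5 detected core subunits, which carry out catalysis, had a median of -0.49, and the 30 accessory subunits a median of -0.12. Scaling to a common median gave -0.26 for the core and 0.05 for the accessory subunits, so the core median was below 0 under each of the 11 settings while the accessory median and that of the whole complex (0.00 here) were not. The difference between the core and the accessory subunits was not tested.

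Among the core subunits, Ndufs3, part of the arm that reaches into the matrix, had raw intensities of 2941 and 2074 and a difference of -0.66. Ndufs7, which holds the iron-sulfur cluster that hands electrons to ubiquinone, was at -0.53, with raw intensities of 5081 and 4052. Ndufv1, which binds the flavin and oxidises NADH, was at -0.49, with 5767 and 4669. The iron-sulfur subunits Ndufv2 and Ndufs8 were at -0.34 and -0.08. The raw intensity of Ndufs8 was the higher one on the Terc-/- array, 3640 against 3388, and the other 4 were lower there in raw values as well. Ndufs1, the largest core subunit, was not above background on either array.

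Of the accessory subunits, Ndufb2 was lowest, with raw intensities of 618 and 427 and a difference of -0.71. Ndufa5 had 3577 and 2526, a difference of -0.68, and its second probe differed by -0.70. Ndufab1, the mitochondrial acyl carrier protein, was at -0.52 on its brightest probe, and its 4 detected probes ranged from -0.62 to -0.45. The probes of Ndufa5 and of Ndufab1 kept to 1 direction.

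The other accessory subunits formed a continuous series. Ndufc1 was at -0.49 (raw 3682 and 2969) with its second probe at -0.56, Ndufa12 at -0.41 (raw 2254 and 1882) and Ndufb9 at -0.40 (raw 1135 and 935). Ndufb4, Ndufa9, Ndufb5, Ndufa13 and Ndufa10 lay between -0.37 and -0.22, and Ndufc2, Ndufa6, Ndufs6, Ndufb7, Ndufb6, Ndufa3 and Ndufa2 between -0.19 and -0.07. Ndufa7, Ndufa11, Ndufb8, Ndufa1 and Ndufs4 were closest to 0, from -0.04 to -0.02, and all 5 had a higher raw intensity on the Terc-/- array, for example 8757 and 9766 for Ndufa1.

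Ndufv3, a small subunit of the NADH-oxidising module, was the highest complex I gene detected on both arrays, with raw intensities of 4680 and 6825 and a difference of 0.39, and its second detected probe was at 0.40. Ndufb3, Ndufb10 and Ndufa8, of the membrane arm, were at 0.14, 0.13 and 0.05. Ndufb11, a membrane-arm subunit encoded on the X chromosome, was above background in Terc-/- only, at a raw intensity of 187 against 145. On the background-corrected scale it was at least 1.64-fold higher, a bound that holds on that scale only: its difference was 0.30 (log2) without background correction and 0.29 in the deposited values. The symbol Ndufs5-ps stands for a pseudogene copy of a subunit, and it was at -0.14.

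Complex II had 3 detected genes, all lower. Sdhb, the iron-sulfur subunit, had raw intensities of 1993 and 1618 and a difference of -0.44, and its other detected probe was at -0.46. Sdhc and Sdhd, which anchor the complex in the membrane, were at -0.22 and -0.14. Sdha, the flavin subunit that oxidises succinate, was not above background on either array. All 3 detected genes were below 0 under each of the 11 settings.

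Complex III had 7 detected genes (median -0.06, mean 0.02). Uqcrh, the hinge protein that helps cytochrome c dock, had raw intensities of 12032 and 9286 and a difference of -0.58. Uqcr11 was at -0.35 and Uqcr10 at -0.06, both small subunits of the complex. The large core proteins Uqcrc1 and Uqcrc2 were at 0.00 and -0.18.

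Uqcrq, a small subunit that binds near cytochrome b, was at 0.60, with raw intensities of 342 and 471. The accession of its probe is that of a cDNA clone, and the other Uqcrq probe was not detected. Uqcrfs1, the Rieske iron-sulfur protein that takes electrons from ubiquinol, was above background in Terc-/- only, at a raw intensity of 169 against 135. It was at least 1.22-fold higher on the background-corrected scale, and its difference was 0.24 (log2) without that correction and 0.23 in the deposited values. The differences of Uqcrq and Uqcrfs1, the highest in complex III, came from dim probes. Scaling to a common median gave a median of 0.16 for the complex.

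In complex V, all 16 genes were detected, 13 lay below 0 and the median was -0.14, or 0.05 with scaling to a common median. On their brightest probes, the 5 subunits of the catalytic F1 head kept a narrow range. Atp5b, the catalytic beta subunit, had raw intensities of 21455 and 21636 and a difference of -0.14. Atp5a1, the alpha subunit, was at -0.13, but its other, dimmer detected probe was at 0.56. Atp5c1, the rotating gamma subunit, was at -0.21, Atp5d at -0.12 and Atp5e at -0.10. With scaling to a common median the F1 median was 0.04 in place of -0.13.

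Outside the F1 head, Atp5j2, subunit f of the membrane part, was lowest, with raw intensities of 16153 and 12693 and a difference of -0.54. Atp5md was at -0.36, with raw intensities of 285 and 248. Atp5j, Atp5h and Atp5o, of the stalk that holds the head still, were at -0.29, -0.27 and -0.25. The small membrane subunits Atp5mpl and Atp5l were at 0.15 and 0.02.

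Atp5k, subunit e of the membrane part, was the 1 member at least 2-fold higher. Its probe had raw intensities of 188 in Terc+/+ and 292 in Terc-/-, a difference of 1.13 or 2.19-fold. The accession of that probe is that of a cDNA clone, and the probe for the curated transcript was not above background on either array, at 111 and 130. Without background correction the difference was 0.61, so the call rests on the correction of a dim probe.

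Several genes had more than 1 detected probe, which allows the array itself to be checked, though not the mice. Of 24 such members, the next brightest probe had the same sign for 20, and the median gap between the 2 probes was 0.12 on the log2 scale. Over all 3501 genes with a further detected probe, 2760 kept the sign and the median gap was 0.24. Probes split in sign for Atp5a1 (from -0.13 to 0.56), Ndufb8 (from -0.02 to 0.45), Ndufs4 (from -0.20 to 0.13), Atp5pb (from -0.12 to 0.10), Ndufs6 (from -0.11 to 0.10) and Ndufa3 (from -0.08 to 0.04).

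Assembly factors went both ways. Of the 8 Ndufaf genes, 7 were detected and none passed 2-fold. Ndufaf5 had raw intensities of 473 and 357 and a difference of -0.58, with its other probe at -0.11. Ndufaf4 was at -0.47, Ndufaf2 at -0.33 and Ndufaf1 at -0.31, all factors that help build complex I. Ndufaf7, an arginine methyltransferase that modifies a core subunit, was at 0.85, with raw intensities of 196 and 272, Ndufaf3 was at 0.54 and Ndufaf8 at 0.40. Ndufaf6 was not above background.

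Assembly factors outside the symbol rule had a median of -0.01 over 31 detected genes, with none past 2-fold. Sdhaf4, which helps mature the flavin subunit of complex II, was at -0.93, Uqcc2, of complex III assembly, at -0.67 and Cox11, which delivers copper to complex IV, at -0.66. Pet100 was at 0.73, Cox15, of haem a synthesis, at 0.48 and Foxred1 at 0.43.

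Subunits encoded by mitochondrial DNA had 6 detected genes of 8, with a median of -0.22. CYTB, cytochrome b of complex III, had raw intensities of 39870 and 46290 and a difference of 0.10, and ATP6, ND4 and COX2 were at -0.29, -0.23 and -0.21. ND4L, a small membrane subunit of complex I, was at -1.13, with raw intensities of 678 and 374, and was the 1 gene of this list past 2-fold. ND4L overlaps ND4 on the mitochondrial genome, where the probe differed by -0.23.

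Enzymes of the citric acid cycle, which feed NADH and succinate to the chain, had a median of -0.15 over 14 detected genes, with none past 2-fold. Idh3a, a subunit of isocitrate dehydrogenase, was at -0.73, Dlat, of the pyruvate dehydrogenase complex, at -0.63, and Fh1, fumarase, at -0.40. Mdh2, malate dehydrogenase, was at 0.38. Carriers of electrons and nucleotides had 10 detected genes of 14 (median -0.10, mean 0.12). Coq5, Coq2 and Slc25a3 were lowest, at -0.31, -0.25 and -0.20, and Cycs, cytochrome c, was at -0.06. Coq4 and Coq3, of ubiquinone synthesis, were at 1.41 and 0.87 on probes with raw intensities of 157 and 164 in Terc+/+. Slc25a4, the muscle form of the ADP/ATP carrier, was not above background. The medians of these 4 lists (outside assembly factors, mitochondrial DNA, citric acid cycle, carriers) each changed sign across the 11 settings.

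**Figure D4:**
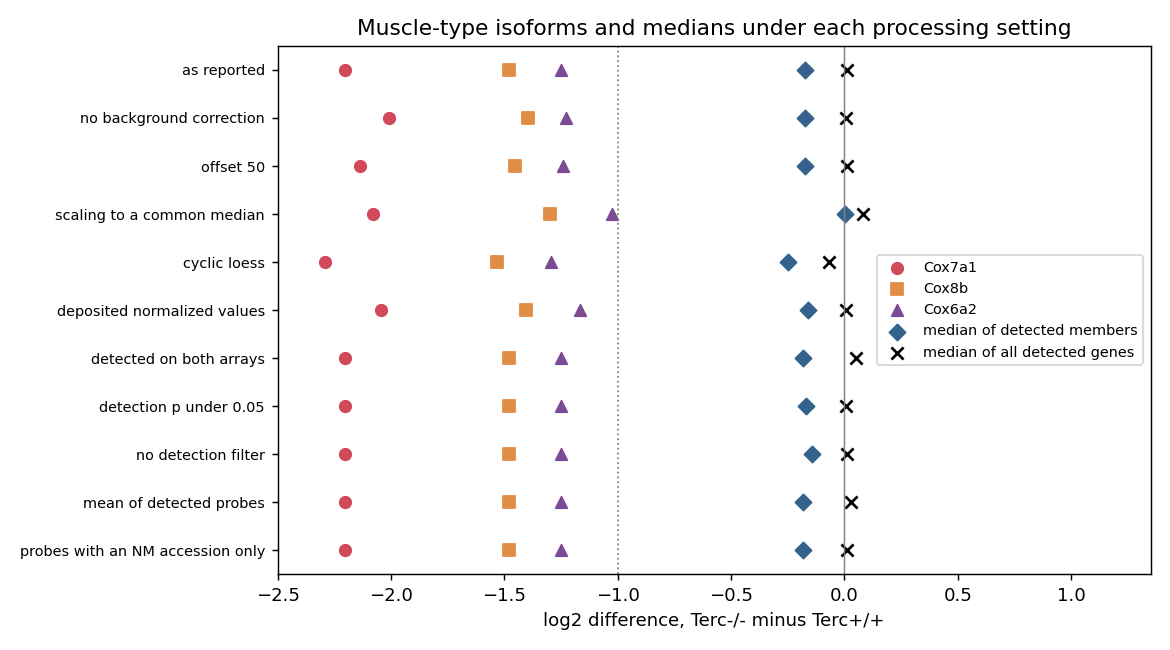
Log2 difference of Terc-/- minus Terc+/+ (horizontal axis) for Cox7a1, Cox8b and Cox6a2, with the median of the detected respiratory chain genes (diamonds) and of all detected genes (crosses), under 11 processing settings (vertical axis). The 3 isoforms stay beyond the 2-fold line at -1 in each setting, while the members' median moves from -0.25 to 0.00. Settings of detection filter or probe choice leave these single-probe genes unchanged.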

How the data were processed

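Each array held cRNA from a pool of 3 tibiae, per the labels. The authors deposited a non-normalized table with an intensity and a detection p-value per probe, per the file headers, and a second table of deposited intensity whose normalization is not given in the sources used here. The second kept the rank order of the first, and the sorted values of its columns differed by at most 0.466. The non-normalized intensities were background-corrected with limma 3.58.1 (function nec with an offset of 16, which infers the background from detection p-values, run in R 4.3.3), then quantile normalized between arrays and put on the log2 scale. Of 45281 probes, 34885 had 1 symbol, 18 several and 10378 none here. All 87 member genes were found by Entrez identifier in the GRCm38.p6 gene table under the same symbol. A gene was represented by its brightest detected probe (highest mean log2). For a gene whose probes were detected on a single array, the fold is a lower bound, computed from the bright value and, on the other array, either the lowest signal of a detected probe or the gene's own value, whichever was higher.

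A difference was called at 2-fold, a rule of size, since 1 array per genotype allows no test. The members, gene lists and tests were chosen with earlier results of these data known. Named in the text are, per complex, the 4 genes detected on both arrays with the largest difference in each direction, every gene above background on 1 array only, every gene whose probes split in sign, the isoform pairs, and up to 3 genes in each direction of the pathway lists. Other genes named were chosen after their values were seen. The procedure was tested on simulated data. Figures were drawn with matplotlib 3.10.9. Precision is limited by having 2 arrays.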

Additional observations from a re-analysis of the deposited data

How the results depend on the processing

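The count of 3 members at least 2-fold lower held without background correction, with an offset of 50, with scaling to a common median, with cyclic loess, in the deposited normalized values, under 3 other detection filters and with the mean of a gene's probes. It was 0 without Cox6a2, Cox7a1 and Cox8b, by construction, 7 at a 1.5-fold limit and 1 at 3-fold. The count of 1 member at least 2-fold higher was 0 without background correction, with an offset of 50, in the deposited values, with probes of curated accessions only and at 3-fold, and 4 at 1.5-fold. The last probe choice and the omission of the 3 genes were added after the data were seen. Complex medians moved by less than the probe spread (0.35, the per-probe SD between probes of 1 gene over all genes), but those of complexes I, III and V reached 0.00, 0.16 and 0.05 with scaling to a common median, and the medians of the 4 pathway lists also changed sign across settings. The 2-fold limit called 683 higher and 877 lower in the whole array as reported, 356 and 487 without background correction, 362 and 506 in the deposited values, and 547 and 1017 with cyclic loess. Of 533 recomputed values, 516 stayed within these limits, and no called value changed direction. That count includes values that could not move, since a detection filter or probe choice leaves a bright single-probe gene unchanged. A value could also change sign within the limit, as the complex III median did, from -0.06 to 0.16. Dim genes moved most, such as Ndufb11, from 0.83 to 0.30 without background correction. No paired analysis was possible because each genotype had 1 array.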

Other observations

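Cox7a1, Cox8b, Cox6a2 and Cox6b2, the 4 lowest genes of complex IV, all lie on mouse chromosome 7, at chr7:30184171-30186030, chr7:140898942-140900446, chr7:128205435-128206366 and chr7:4751792-4753094 in GRCm38.p6. This was noticed after their values were seen. The other detected members on that chromosome were Ndufab1 at -0.52, Cox6b1 at -0.26, Ndufc2 at -0.19, Uqcrc2 at -0.18 and Ndufa3 at -0.08. All 9 lay below 0, as did 77.8% of the detected members on any chromosome and all detected members on chromosomes 3, 4, 6, 10, 15, 16, 18 and 19. With scaling to a common median Uqcrc2 was at 0.04 and Ndufa3 at 0.14. Over the 748 detected genes of chromosome 7 the median difference was 0.11 and 43.3% lay below 0.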
